A study of Mus musculus with 12 samples.

Results

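The cytosolic ribosome of mouse cells holds about as many proteins as genes are described here, and each protein has a dedicated gene. Genes were taken by symbol: an Rpl or Rps name followed by a number and at most a final a or x, or *Rplp0*, *Rplp1*, *Rplp2* or *Rpsa*, averaging 1 FPKM or more over the 12 libraries. FPKM scales sequenced fragments by transcript length and by library size, so that levels of different genes can be set side by side. Such a comparison holds only as far as reads can be assigned to a gene and the transcript length used is right. Of 24346 symbols, 76 met the rule, 46 encoding proteins of the large subunit and 30 of the small subunit. All 76 symbols that match the pattern passed the level, so no symbol lay just outside it, and the lowest inside were *Rpl26* at 22.9, *Rpl30* at 37.0 and *Rps15a* at 88.0 FPKM.

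The small subunit reads the mRNA and the large subunit joins the amino acids. Because a ribosome holds each protein once, apart from the paired stalk proteins P1 and P2, cells make these proteins in near-equal numbers, and their mRNAs are among the most abundant of any growing cell. Most of them begin with a run of pyrimidines, the terminal oligopyrimidine or TOP motif, through which the kinase mTOR and the RNA-binding protein LARP1 control their translation. In lymphocytes, activation is followed by growth and new ribosomes, and the level of an mRNA does not by itself tell how much of it is translated.

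RNA came from ILC2s, innate lymphoid cells that release type 2 cytokines, sorted from the lungs of C57BL/6J mice 7 to 12 weeks old. The 4 groups of 3 libraries were WT mice given PBS, *Sema6d*-/- mice given PBS, WT mice given IL-33 and *Sema6d*-/- mice given IL-33. *Sema6d* encodes the transmembrane guidance protein semaphorin 6D, and IL-33 is an alarmin that activates ILC2s. Both agents were given intranasally for 3 days, and the labels state 50 ng of IL-33, which differs from the published methods, so the dose is uncertain. The labels do not say that replicates came from separate mice, and p-values measure the spread between these libraries, which may be in part technical. A sum over many cells cannot tell fewer cells of a type from less RNA per cell.

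The targeted gene was read first. *Sema6d* was 27.5, 46.1 and 37.5 FPKM in the WT PBS libraries and 29.0, 22.9 and 19.8 FPKM in the PBS libraries labelled *Sema6d*-/-. After IL-33 it was 19.7, 35.5 and 28.7 FPKM in WT and 15.4, 13.6 and 13.8 FPKM in libraries labelled *Sema6d*-/-. The genotypes overlapped under PBS and did not overlap under IL-33, where the log2 fold change was −0.89 (SE 0.32, limma adjusted p = 1). Since the message was well above 0 in every library, the genotype labels could not be checked from it, and a value per gene does not show whether the transcript is whole. Every direction between genotypes below is therefore one between libraries labelled WT and libraries labelled *Sema6d*-/-.

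The label of the cells was set against marker genes. By the published methods the sort kept CD45, Thy1.2 and ST2 positive cells and left out those with lineage markers, NK1.1, F4/80 and CD11c among them. All 10 ILC2 markers were above 0.5 FPKM on average, led by the transcription regulator *Id2* at 2623, the growth factor *Areg* at 1602 and the receptor *Klrg1* at 479.7 FPKM. Their summed level was 4987 to 8034 FPKM per library, lowest in *Sema6d*-/- PBS replicate 2 and highest in *Sema6d*-/- PBS replicate 1. Among them *Klrg1* rose with IL-33 in WT by 1.19 (SE 0.28, limma adjusted p = 0.0318), and *Il2ra* fell, at −2.16 in WT and −1.57 in *Sema6d*-/- (limma adjusted p = 0.000665 and 0.00666). The summed level of 10 macrophage markers was 0.195 to 131 FPKM, with *Lyz2* the most abundant, and was highest in *Sema6d*-/- PBS replicate 2 and next, at 62.4 FPKM, in *Sema6d*-/- IL-33 replicate 3. *Sema6d*-/- PBS replicate 2 also held the highest sum of 4 NK cell markers, 104 FPKM with *Ncr1* at 58.9 FPKM, against 0 to 6.99 FPKM elsewhere. B cell markers summed to 0 to 26.9 FPKM, with *Cd79b* the most abundant and *Ms4a1* and *Pax5* listed at 0 in every library. T cell markers summed to 190 FPKM in WT PBS replicate 1, the lowest, and to 483 FPKM in WT PBS replicate 2, the highest. Among them *Cd3g* was 284 FPKM on average and *Cd4* was listed at 0 throughout. Of the granulocyte genes, *Epx*, *Prg2*, *S100a8* and *S100a9* were listed at 0 in all 12 libraries, while *Ear2*, the most abundant eosinophil marker, reached 39.7 FPKM in *Sema6d*-/- PBS replicate 2. Epithelial markers summed to 0 to 98.6 FPKM, with *Epcam* highest on average and *Sftpc* at 97.2 FPKM in *Sema6d*-/- IL-33 replicate 3. Endothelial markers summed to 1.32 to 20.9 FPKM, mostly *Pecam1*, and fibroblast markers to at most 4.51 FPKM. *Sema6d*-/- PBS replicate 2 thus stood apart in markers of macrophages, NK cells and eosinophils, but not of T cells, at 266 FPKM. With IL-33, 3 low markers were called: *Cd79b* rose in WT by 4.08, and in *Sema6d*-/- *Cd68* rose by 2.08 and *Epcam* fell, at −3.73 (limma adjusted p = 0.0228, 0.0279 and 0.0185). The part of other cells in the ribosomal protein values was not tested.

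Ribosomal protein mRNAs were among the most abundant of all. The median over the 76 genes was 1378 FPKM, the highest mean was 238 times the lowest, and 3 genes were below 100 FPKM. No gene was listed at 0 in any library, and 37 of the 100 most abundant genes of the whole files belonged to the family. The family held at least 13.7% of the summed FPKM of a library, the lowest share being that of WT PBS replicate 3. The median was 1070 FPKM for large-subunit genes and 1516 FPKM for small-subunit genes, and the mean log2 level of the large-subunit genes lay 0.62 to 0.75 below that of the small-subunit genes within a library.

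The 10 most abundant members held 32.3% of the family's summed FPKM. *Rpl41*, which encodes the shortest and most basic ribosomal protein, led with a mean of 5446 FPKM. It was 5669, 5951 and 4172 FPKM in WT PBS, 5449, 4287 and 4914 FPKM in *Sema6d*-/- PBS, 6748, 5994 and 6176 FPKM in WT IL-33 and 5418, 4880.5 and 5698 FPKM in *Sema6d*-/- IL-33. It ranked 6 among all genes. *Rps18*, whose product sits in the head of the small subunit, followed at 4899 FPKM. Others among the 10 were *Rpl37a* at 4064, *Rps14* at 3737, *Rps28* at 3634, *Rps29* at 3596, *Rpl32* at 3378 and *Rpl13* at 3292 FPKM. Small-subunit genes thus made up 5 of the 10.

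The stalk proteins recruit the GTPases that drive elongation. *Rplp1* had a mean of 3106 FPKM, *Rplp0*, the base of the stalk, 1669 FPKM and *Rplp2* 1319.9 FPKM. *Rpsa*, a small-subunit protein also described as a laminin receptor, was at 1572 FPKM. P1 and P2 pair with each other in the stalk, yet the level of *Rplp1* was above that of *Rplp2* in each of the 12 libraries.

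**Figure D1:**
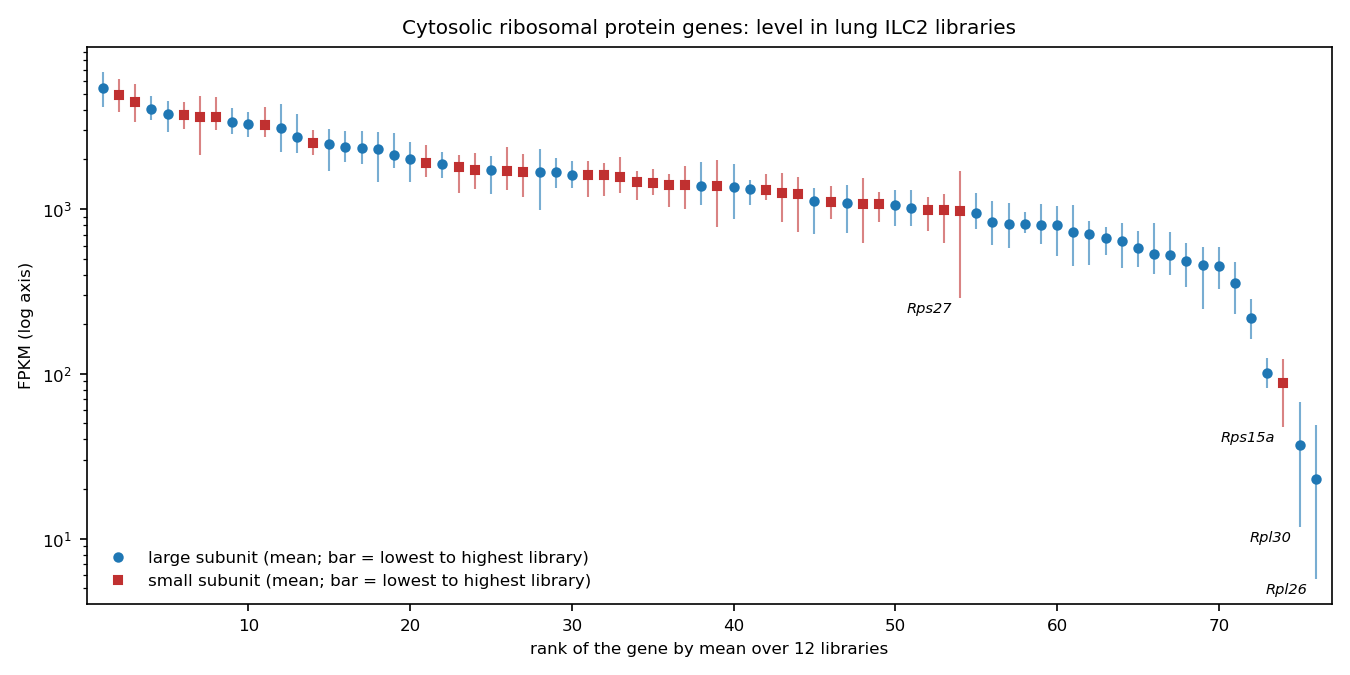
Mean FPKM of the 76 cytosolic ribosomal protein genes over 12 libraries on a log axis, ordered by level, with bars from the lowest to the highest library; circles are large-subunit and squares small-subunit genes. Most genes lie above 100 FPKM, while *Rps15a*, *Rpl30* and *Rpl26* lie below 100 FPKM and *Rps27* spans from 289.7 to 1690.0 FPKM.

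The order of the members was much the same in all libraries, with a Spearman correlation over the 76 genes of 0.954 to 0.996 between libraries, a description in which genes are not independent. The pooled within-group SD of log2(FPKM + 1) had a median of 0.212 over members, against 0.684 over the 11395 genes tested and 0.263 over the 1082 that averaged 100 FPKM or more. It was smallest for *Rpl29* at 0.108, *Rplp0* at 0.127 and *Rpl13* at 0.127, and largest for *Rpl26* at 0.965, *Rpl30* at 0.708 and *Rps27* at 0.703. By group, the median SD over members was 0.312 (WT) and 0.176 (*Sema6d*-/-) under PBS and 0.121 (WT) and 0.109 (*Sema6d*-/-) after IL-33. Over the 1082 abundant genes it was, in the same order, 0.301, 0.283, 0.134 and 0.134, so that in WT PBS the members spread slightly more than these.

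*Rpl26*, a large-subunit protein near the peptide exit that also binds the mRNA of p53, had 41.8, 6.98 and 7.24 FPKM in WT PBS and 36.3, 22.2 and 48.7 FPKM in *Sema6d*-/- PBS. After IL-33 it had 22.7, 5.71 and 6.48 FPKM in WT and 33.5, 13.3 and 29.8 FPKM in *Sema6d*-/-. Replicate 1 was several times the other replicates in both WT groups, and the genotypes overlapped under each treatment. *Rpl30* had 67.7, 57.5 and 28.4 FPKM in WT PBS, 36.0, 11.8 and 41.2 FPKM in *Sema6d*-/- PBS, 46.5, 18.5 and 43.6 FPKM in WT IL-33 and 31.9, 38.9 and 21.6 FPKM in *Sema6d*-/- IL-33, so that all 4 groups overlapped. These low values lie far from the rest of the family, although the ribosome needs these proteins in the same number.

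Processed copies make the level of single members uncertain. Of the stretches of 75 bases, the length of the reads, in the main transcript of each member (GENCODE vM21), a median of 47.7% occurred unchanged in the transcript of at least 1 other gene. For 33 of the 76 members the share was above 50%, and for *Rps3* it was 0. It was 57.5% for *Rpl26* and 40.1% for *Rpl30*, the low members described above. Across the 76 genes the Spearman correlation of mean FPKM with this share was −0.09, and with transcript length, 345 to 5130 bases, −0.19. How the authors' counting divided reads between such copies is not given in the sources used here.

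*Rps27* is the plainest case. It encodes a zinc-finger protein of the small subunit and lies at chr3:90212522-90213651 on the minus strand of GRCm38, while the intronless *Rps27rt* lies at chr9:114982366-114982739 on the minus strand. Their coding sequences of 255 bases differ at 0 positions, and 181 of 181 stretches of 75 bases are shared. The sequence of both is shown because no read inside it can be assigned to either gene.
*Rps27* and *Rps27rt*, coding sequence 5′ to 3′: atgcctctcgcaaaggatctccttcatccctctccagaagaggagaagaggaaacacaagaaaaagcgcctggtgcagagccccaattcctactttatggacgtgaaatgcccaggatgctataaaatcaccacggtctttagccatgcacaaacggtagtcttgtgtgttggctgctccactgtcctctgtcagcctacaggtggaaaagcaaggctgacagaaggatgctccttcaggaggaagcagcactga

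For *Rps27rt* the files give 10419, 11029 and 6805 FPKM in WT PBS, 9867, 7391 and 8455 FPKM in *Sema6d*-/- PBS, 9658, 8745 and 8206 FPKM in WT IL-33 and 7523, 7734 and 7995 FPKM in *Sema6d*-/- IL-33. *Rps27* itself had 289.7, 1515 and 943 FPKM in WT PBS, 727, 897 and 1690.0 FPKM in *Sema6d*-/- PBS, 1084, 880.1 and 943 FPKM in WT IL-33 and 870.2, 813 and 1080.4 FPKM in *Sema6d*-/- IL-33. *Rps27* took 2.70% to 16.7% of the sum of the pair, lowest in WT PBS replicate 1 and highest in *Sema6d*-/- PBS replicate 3. The sum of the pair ran from 7748 FPKM in WT PBS replicate 3 to 12544 FPKM in WT PBS replicate 2, which would place it above *Rpl41* in every library.

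*Rpl34* and a processed pseudogene form a second pair, with fewer shared stretches. *Rpl34*, at chr3:130726831-130730398 on the minus strand, and *Rpl34-ps1*, at chr6:71124610-71124963 on the plus strand, share 168 of 280 stretches of 75 bases in a coding sequence of 354 bases. They differ at 2 positions, among them T132C, the base of *Rpl34* first and the position counted from 1 at the A of the start codon. The bases around it are shown 5′ to 3′ with the differing base in capitals, since within the coding sequence a read can separate the copies only by crossing a difference.
*Rpl34*, bases 112 to 152: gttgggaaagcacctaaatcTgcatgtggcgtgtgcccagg
*Rpl34-ps1*, bases 112 to 152: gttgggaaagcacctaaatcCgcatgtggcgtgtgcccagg

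For WT the files give *Rpl34-ps1* 2602, 2643 and 1416 FPKM under PBS and 3203, 2923 and 2765 FPKM after IL-33, and *Rpl34* 221, 207 and 164 and 274, 285 and 231 FPKM. The pseudogene thus carried 8.66 to 12.8 times the value of the gene in each of the 12 libraries. In contrast to *Rps27*, the share given to *Rpl34*, 7.27% to 10.4%, varied little. Values of *Rps27*, *Rpl34* and of the members that share most of their length are therefore uncertain.

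Genes of the family lie on 19 chromosomes. RefSeq start sites on GRCm38.p6 were found for 56 of the 76 members, with 66 start sites in all. Within 20 bases to either side of the start, a run of at least 8 pyrimidines (C or T) was present in 28 of the 56 members, or 43.9% of their start sites, against 16.0% of all 32851 start sites. The median longest run was 7 bases for the members and 5 bases for all. In the 300 bases from 250 before to 50 after the start, and on both strands, CTTTCC was found in 50% of the family's start sites against 26.6% of all, and it can overlap a pyrimidine run. CCGGAAG, the core bound by ETS proteins, was found in 36.4% against 8.86%, and TATAAA in 9.09% against 13.6%. A match describes these letters and not a bound site. The 40 bases around the start are shown for the most abundant members with an entry and for members with long runs, with the longest pyrimidine run of each in capitals.
*Rpl41* (chr10:128549149-128549188, minus strand): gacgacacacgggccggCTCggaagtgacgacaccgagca
*Rps18* (chr17:33955646-33955685, minus strand): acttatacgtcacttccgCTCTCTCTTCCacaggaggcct
*Rpl37a* (chr1:72711240-72711279, plus strand): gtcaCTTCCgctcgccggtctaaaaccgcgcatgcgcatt
*Rps28* (chr17:33824543-33824582, minus strand): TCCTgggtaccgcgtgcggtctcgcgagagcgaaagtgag
*Rpl13* (chr8:123102330-123102369, plus strand): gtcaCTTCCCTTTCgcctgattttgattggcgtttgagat
*Rpl7a* (chr2:26910787-26910826, plus strand): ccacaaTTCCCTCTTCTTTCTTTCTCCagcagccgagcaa
*Rpl27a* (chr7:109519175-109519214, plus strand): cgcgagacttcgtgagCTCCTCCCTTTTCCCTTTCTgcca
*Rpl35* (chr2:39005112-39005151, minus strand): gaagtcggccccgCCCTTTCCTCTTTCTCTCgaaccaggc
*Rpl15* (chr14:18270967-18271006, minus strand): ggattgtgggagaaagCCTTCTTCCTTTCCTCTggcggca
*Rpl4* (chr9:64173367-64173406, plus strand): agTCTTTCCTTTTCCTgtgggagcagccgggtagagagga

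The longest runs shown belong to *Rpl7a*, *Rpl27a* and *Rpl35*, with 21, 20 and 18 pyrimidines. *Rpl41*, the most abundant member, has only 3 in this window, and *Rpl37a* and *Rps28* have 5 and 4.

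As a summary of the family, the mean of log2(FPKM + 1) over the 76 genes was taken in each library. Under PBS it was 10.23, 10.44 and 9.81 for WT and 10.16, 9.95 and 10.25 for *Sema6d*-/-. After IL-33 it was 10.46, 10.26 and 10.24 for WT and 10.11, 10.03 and 10.25 for *Sema6d*-/-. The group means were, in the same order, 10.16 ± 0.32, 10.12 ± 0.15, 10.32 ± 0.12 and 10.13 ± 0.11 (SD, n = 3). WT PBS replicates 2 and 3 were the highest and the lowest of the PBS libraries, and every pair of groups overlapped. No p is given for this mean, because the genes were chosen with earlier results known.

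Differences of group means were within or near the pooled SD of 0.20. In WT, IL-33 minus PBS was 0.16, kept its sign under the 3 other scalings, and was −0.01 without WT PBS replicate 3. In *Sema6d*-/-, IL-33 minus PBS was 0.01. *Sema6d*-/- minus WT was −0.19 under IL-33 and stayed below 0 under every scaling, at −0.09 after quantile normalization and −0.11 with the same total in each library, and between −0.25 and −0.12 with any library left out. Under PBS it was −0.04, and turned to 0.04 with quantile normalization and 0.02 with the same total.

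**Figure D2:**
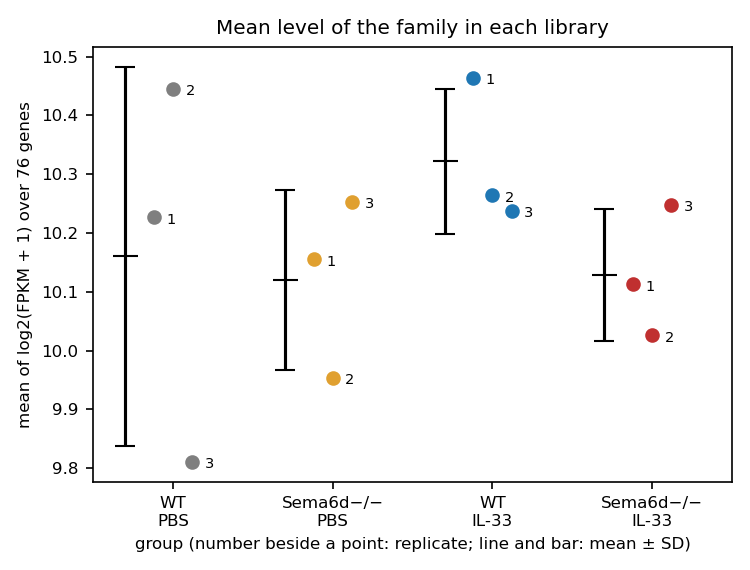
Mean of log2(FPKM + 1) over the 76 genes (vertical axis) in each library of the 4 groups, with the replicate number beside each point and the group mean and SD (n = 3) drawn to the left. Values run from 9.81 in WT PBS replicate 3 to 10.46 in WT IL-33 replicate 1, and all groups overlap; the difference between genotypes under PBS changes sign with quantile normalization or the same total.

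Within each group the members moved together. WT IL-33 replicate 1 was the highest of its group for 74 of the 76 genes, WT PBS replicate 2 for 70, *Sema6d*-/- IL-33 replicate 3 for 69 and *Sema6d*-/- PBS replicate 3 for 46. WT PBS replicate 3 was the lowest of its group for 72 genes. In 3 of the 4 groups a single library was thus the highest for at least 69 members, so the genes are not independent witnesses of a treatment. Other properties differed between libraries too. Depth is unknown in FPKM, but the spacing of low values gave a relative depth of 0.739 to 1.39. Of 3617 genes averaging 5 to 20 FPKM, the number without signal was 169 to 641 per library under PBS and 25 to 50 after IL-33. Genes above 1 FPKM numbered 8356, 8026 and 9229 in the WT PBS libraries, where the library with most genes, replicate 3, had the lowest mean of the family. In the *Sema6d*-/- PBS libraries they numbered 7696, 9287 and 9084, and replicate 2 had both the most genes and the lowest mean. The WT IL-33 libraries did not share this pattern, with 9920, 9975 and 9917 genes, where replicate 3 had the fewest genes and the lowest mean. In *Sema6d*-/- IL-33 they numbered 10081, 10075 and 10042, and replicate 3 had the fewest genes and the highest mean. The part of these differences in the family's level was not tested.

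IL-33 was compared with PBS in WT cells first. Here 59 of the 76 members had a log2 fold change above 0, with a median of 0.15 that no scaling turned, and the median over all 11395 genes tested was 0.16. Quantile normalization moved the median of all genes to −0.04 and that of the members to 0.22, a gap of 0.26 in place of −0.01. By limma with Benjamini-Hochberg adjustment over all genes, 0 of 76 members passed an adjusted p of 0.05, while 2.66% of all genes were called higher and 1.61% lower. At an unadjusted p under 0.05 there were 11 higher members and 1 lower member, 15.8% of the family against 17.6% of all genes. Groups did not overlap for 11 higher members (15.9% of all genes) and for *Rpl13* as the single lower one (9.23% of all genes). The order of these shares turned with the scaling, as 32.9% of the members against 12.2% of all genes were higher without overlap after quantile normalization, and 26.3% against 16.1% with the same total. The count at an unadjusted p under 0.05 was 29 with quantile normalization (18.4% of all genes) and 30 without WT PBS replicate 2 (18.7%), but 1 without the mean-variance trend (16.9%).

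*Rpl24* stood at the top of this comparison, with 80.9% of its 75-base stretches shared with other genes. Its protein links the large subunit to the small one, and a mutation of the gene slows growth in Bst mice. It was 549, 784 and 450.4 FPKM in WT PBS and 1052, 886 and 944 FPKM in WT IL-33. All IL-33 libraries were above all PBS libraries, with a log2 fold change of 0.73 (SE 0.19) and a limma adjusted p of 0.0556, just above the threshold. It passed in 5 of 24 fits, with adjusted p-values from 0.0102 to 0.216. Next came *Rps26*, near the channel through which mRNA leaves, with 1349.8, 1635 and 783 FPKM in PBS and 1970.0, 1745 and 1571 FPKM in IL-33. The log2 fold change of *Rps26* was 0.55 (SE 0.22, limma adjusted p = 0.205), with PBS replicate 2 inside the IL-33 range. *Rps15a* followed with 0.53 (SE 0.27, limma adjusted p = 0.352), from 94.0, 107 and 47.4 FPKM in PBS and 123, 110.4 and 106 FPKM in IL-33, and overlapped in the same way.

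At the other end were the 2 erratic genes *Rpl30*, at −0.50 (SE 0.52, limma adjusted p = 0.686), and *Rpl26*, at −0.41 (SE 0.70, limma adjusted p = 0.826). Without WT PBS replicate 1 the value of *Rpl26* was 0.39. *Rpl14* came next, with 1157, 1258 and 889 FPKM in PBS and 911, 895 and 822 FPKM in IL-33, a log2 fold change of −0.32 (SE 0.15, limma adjusted p = 0.295). Only PBS replicate 3 lay within its IL-33 range. *Rpl13*, with 3857, 3889 and 3658 FPKM in PBS and 3449, 3052 and 3173 FPKM in IL-33, had −0.24 (SE 0.11, limma adjusted p = 0.270) and was lower in each IL-33 library.

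Because libraries shift the whole family, each gene was also set relative to the mean of the 76 in its library, an alternative chosen after seeing the data. On this scale 2 members were called in WT, *Rpl24* higher by 0.57 (SE 0.14, limma adjusted p = 0.0491) and *Rpl14* at −0.48 (SE 0.11, limma adjusted p = 0.0370), with 1.29% of all genes higher and 1.43% lower. *Rpl24* thus rose against the mean of the family on that scale and *Rpl14* fell against it. Quantile normalization called 4 members higher, *Rps13*, *Rpl24*, *Rpl23a* and *Rps26*, with limma adjusted p-values of 0.0129, 0.0322, 0.0372 and 0.0416, where 2.18% of all genes were called higher and 2.03% lower. Over all 24 fits the adjusted p reached 0.537 for *Rps13*, 0.538 for *Rpl23a*, 0.494 for *Rps26* and 0.582 for *Rpl14*. Without WT PBS replicate 2, the highest PBS library, 4 members were called higher, *Rpl24* and *Rpl27a* among them (317 of all genes higher and 209 lower), and 37 in place of 11 were higher without overlap (23.2% of all genes), a count that was 19 without WT IL-33 replicate 3 (19.1% of all genes). Without WT PBS replicate 3, the lowest, 0 were called, the median of the members was −0.02, and 8 in place of 1 were lower without overlap (14.8% of all genes), with 2 without WT IL-33 replicate 1 (11.1% of all genes).

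In cells labelled *Sema6d*-/-, the comparison of IL-33 with PBS shares no library with that in WT, whereas each comparison between genotypes reuses groups of these 2 and is not independent of them. Here 40 of the 76 members were above 0, with a median of 0.03 against 0.14 over all genes, and quantile normalization moved these to 0.08 and −0.02, no scaling turning the members' median. Weighting libraries by their quality (array weights) did turn it, to −0.008 with 36 members above 0. By limma 0 members were called, against 1.75% of all genes higher and 1.10% lower, and 3 had an unadjusted p under 0.05, 3.95% of the family against 15.2% of all genes, a count that was 12 with quantile normalization (16.4% of all genes). Groups did not overlap for 9 higher members (13.9% of all genes) and 5 lower members (8.75% of all genes). The order of the higher shares turned with the scaling here too. After quantile normalization 27.6% of the members against 10.9% of all genes were higher without overlap, and 19.7% against 14.5% with the same total.

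*Rpl24* led again, with 497, 568 and 628 FPKM in PBS and 782, 653 and 859 FPKM in IL-33. Each IL-33 library exceeded each PBS library, and the log2 fold change was 0.44 (SE 0.19, limma adjusted p = 0.301). *Rpl24* and *Rpl34* were among the members higher without overlap in both genotypes. *Rpl27* had 0.40 (limma adjusted p = 0.307) and *Rpl17* 0.38 (limma adjusted p = 0.484).

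The lowest values were those of *Rpl26* at −0.50, *Rpl14* at −0.31 (SE 0.15) and *Rps14*, a protein of the platform next to the decoding centre, at −0.29 (SE 0.13), all with a limma adjusted p of at least 0.342. *Rps14* had 4371, 3498 and 4275 FPKM in PBS and 3122, 3331 and 3472 FPKM in IL-33, with no overlap. Without *Sema6d*-/- PBS replicate 2, the library with the highest sums of NK cell and macrophage marker genes, *Rpl13* was called at −0.36 (limma adjusted p = 0.0422; 309 of all genes higher and 167 lower), 26 members in place of 5 were lower without overlap (15.2% of all genes), and the median was −0.08. Without *Sema6d*-/- PBS replicate 3, the highest of its group, the median was 0.09, and 16 in place of 9 were higher (22.7% of all genes). Without *Sema6d*-/- IL-33 replicate 3 the median was −0.07 and 15 were lower (10.9% of all genes), and without *Sema6d*-/- IL-33 replicate 2, 14 were higher (16.9% of all genes). The adjusted p of *Rpl13* over 24 fits ran from 0.0422 to 0.710. The sign of the family's median after IL-33 therefore turned on which library was left out, in either genotype.

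The next comparison asked how the genotypes differed after IL-33. Of the 76 members 75 lay below 0 in libraries labelled *Sema6d*-/-, with a median of −0.20, while the median of all genes was 0.01. The medians were −0.20 for large-subunit and −0.22 for small-subunit genes. The direction held under each scaling, with 68 members below 0 and a median of −0.10 after quantile normalization, and 69 and −0.12 with the same total. By limma 0 of 76 members were called, and 0% of all genes were higher and 0.00878% lower. An unadjusted p under 0.05 was found for 6 members, all lower, 7.89% of the family against 1.83% of all genes. That count was 44 with array weights, *Rpl26* among them as higher (9.52% of all genes), 25 with only the 2 groups (9.21%), 17 without WT PBS replicate 3 (2.19%), 2 without WT IL-33 replicate 1 (1.33%), 1 with quantile normalization (1.88%) and 0 without the trend (1.65%). Groups did not overlap for 30 lower members, against 7.35% of all genes, and for 0 higher members, against 6.88% of all genes. Under quantile normalization or with the same total, 19 members were lower without overlap, as were 798 and 563 of all 11395 genes. Without *Sema6d*-/- IL-33 replicate 3, the highest of its group, 68 were (11.4% of all genes), and without WT IL-33 replicate 3, 47 (1484 of all genes). Since 1 library of each of these groups was the highest for 74 and 69 members, these 30 are not separate observations.

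*Rpl3*, a core protein of the large subunit that reaches toward the site of peptide bond formation, had the lowest value, with 83.2% of its stretches shared. It was 1625, 1524 and 1490.2 FPKM in WT and 1064, 1145 and 1193 FPKM in *Sema6d*-/- after IL-33, against 1383, 1941 and 1391 and 1333, 1134 and 1399 FPKM under PBS. After IL-33 every WT library exceeded every *Sema6d*-/- library, with a log2 fold change of −0.45 (SE 0.14, limma adjusted p = 1). *Rps15a* followed at −0.41 (SE 0.27) and *Rpl31*, beside the peptide exit, at −0.36 (SE 0.22), both without overlap and with a limma adjusted p of 1. *Rps9* had 3014, 2766 and 2722 FPKM in WT and 2163, 2136 and 2324 FPKM in *Sema6d*-/-, and −0.36 (SE 0.13, limma adjusted p = 1). Weighting libraries by their quality called 2 members lower, *Rpl3* at −0.46 (limma adjusted p = 0.0151) and *Rps9* at −0.36 (limma adjusted p = 0.0369), with 0.263% of all genes higher and 0.219% lower. In the other 23 fits neither was called, and their adjusted p reached 1.

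Of the abundant members, *Rps18* had 5946, 5044 and 4960.3 FPKM in WT IL-33 and 4159, 4072 and 4315 FPKM in *Sema6d*-/- IL-33, a log2 fold change of −0.34 (SE 0.12, limma adjusted p = 1) with no overlap. *Rplp0*, *Rplp1* and *Rpsa* were also lower without overlap, at −0.16, −0.33 and −0.30, while *Rplp2* overlapped at −0.05. At the upper end stood *Rpl26* at 1.23 (SE 0.70, limma adjusted p = 1), *Rpl22* at −0.03 and *Rpl38*, known from its part in translating *Hox* mRNAs, at −0.04. *Rpl22* and *Rpl38* had positive values, 0.05 and 0.04, with the same total in each library. Relative to the family mean, *Rpl3* was at −0.26 (SE 0.12) and *Rpl26* at 1.42 (SE 0.66), and 0 members were called.

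Other abundant genes were read beside the family in this comparison. *Gapdh* was 650.5, 589.5 and 672 FPKM in WT and 579, 538 and 549.7 FPKM in *Sema6d*-/-, and *Actb* 924, 862 and 968 and 777, 756 and 683 FPKM, each lower without overlap. Their log2 fold changes were −0.20 and −0.31, and −0.13 and −0.21 after quantile normalization, with a limma adjusted p of 1 and no change of sign under any scaling. *Malat1*, a nuclear RNA, went the other way, with 270.3, 483 and 394 FPKM in WT and 682, 370.1 and 649.6 FPKM in *Sema6d*-/-. Its log2 fold change was 0.56 (SE 0.24, limma adjusted p = 1), with overlap and the same sign under each scaling. The summed FPKM of all genes was 763327 to 779976 in the WT IL-33 libraries and 724236 to 732926 in the *Sema6d*-/- IL-33 libraries. FPKM totals need not be equal, and with equal totals the family's difference was smaller, as given above. The total contains the family itself, which summed to 128568 to 147872 FPKM in WT IL-33 and 109536 to 126938 FPKM in *Sema6d*-/- IL-33. Equal totals therefore take out part of the family's difference by construction. Macrophage markers summed to 0.815 to 3.96 FPKM in WT IL-33 and 10.5 to 62.4 FPKM in *Sema6d*-/- IL-33, and their part in the difference was not tested.

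**Figure D3:**
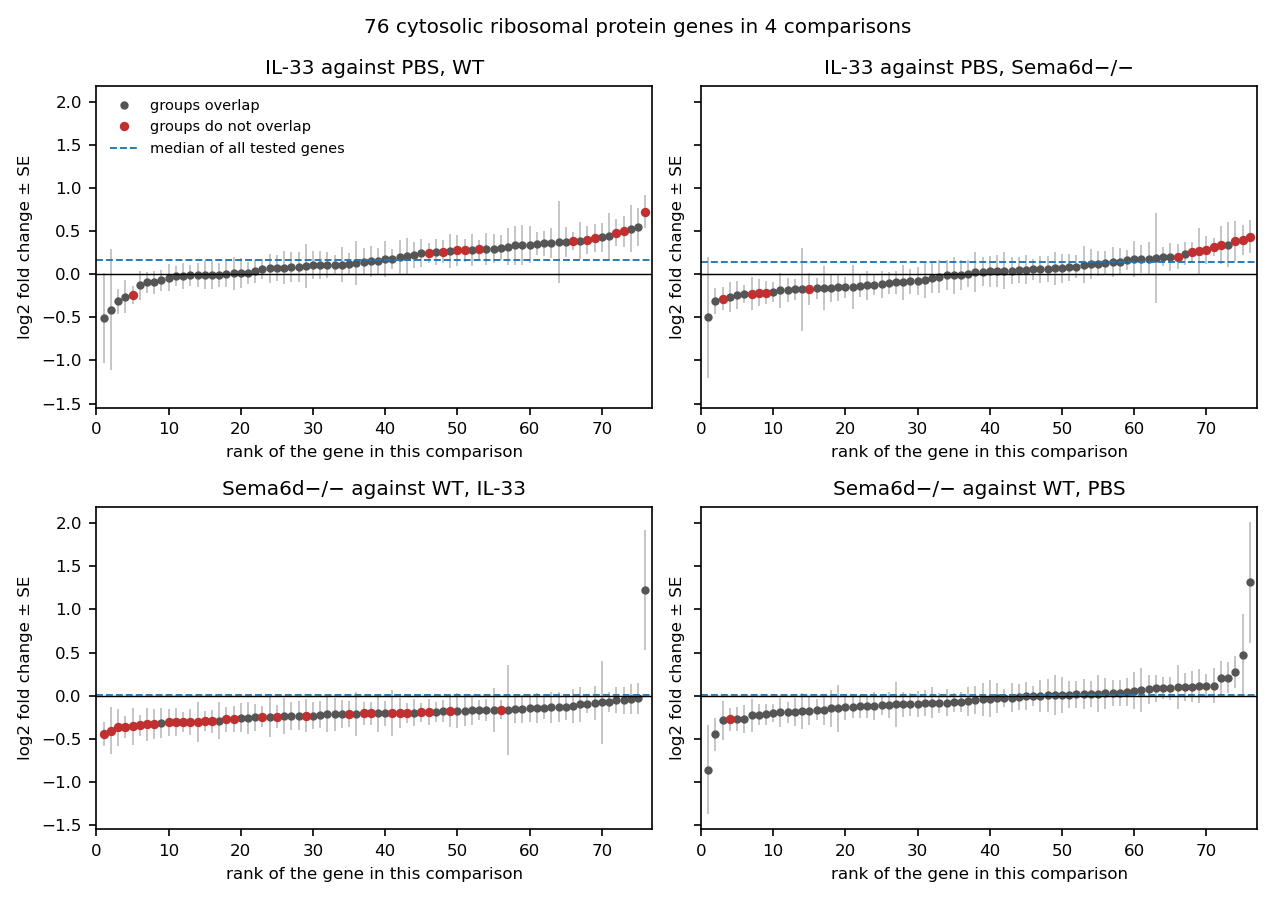
Log2 fold change with its standard error for each of the 76 genes in 4 comparisons, ordered within each panel, with red points where the groups do not overlap. Under IL-33, 75 of 76 genes lie below 0 in *Sema6d*-/- (68 after quantile normalization and 69 with the same total), but 0 genes were called in any panel.

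The genotypes were also compared under PBS. In libraries labelled *Sema6d*-/- 46 members were below 0 and 30 above, with a median of −0.05 against 0.00 for all genes, and the median turned to 0.02 after quantile normalization and 0.01 with the same total, so no direction is drawn. By limma 0 members were called, against 0.333% of all genes higher and 0.246% lower, and *Rpl21* alone had an unadjusted p under 0.05, 1.32% of the family against 12.9% of all genes, a count that was 18 without WT PBS replicate 3 (15.6% of all genes). Groups did not overlap for 0 higher members (4.42% of all genes) and 1 lower member (4.20% of all genes). That member was *Rpl18*, with 1115, 1080.2 and 1047 FPKM in WT and 964, 718 and 1032 FPKM in *Sema6d*-/-, a log2 fold change of −0.27 (SE 0.13, limma adjusted p = 0.413).

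At the ends of this comparison were the 3 genes of largest spread, and others. *Rpl26* was at 1.31 (SE 0.70), *Rps27* at 0.47 (SE 0.48) and *Rpl35a* at 0.28 (SE 0.18), and *Rpl30* at −0.86 (SE 0.52), *Rpl21* at −0.45 (SE 0.19) and *Rpl17* at −0.29 (SE 0.23), all with a limma adjusted p of at least 0.349. The value of *Rps27* rested on WT PBS replicate 1 and was −0.21 without it. Without WT PBS replicate 3, 29 members were lower without overlap (8.47% of all genes) and the median of the family was −0.23, and without WT PBS replicate 2, 4 were higher (7.84% of all genes) and the median was 0.08.

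The test of whether genotype altered the response to IL-33 called 0 of 76 members, against 0.00878% of all genes in each direction, and 0 members had an unadjusted p under 0.05, against 5.57% of all genes. The median over members was −0.17 against −0.02 for all genes, and 66 members were below 0, a direction that each scaling kept. Without WT PBS replicate 3 the median was 0.00 and 36 were below 0, and without WT PBS replicate 2, 9 members had an unadjusted p under 0.05, against 7.27% of all genes. The largest values were *Rpl30* at 0.69, *Rpl21* at 0.23 and *Rpl4* at 0.14, and the lowest *Rps27* at −0.55, *Rpl35a* at −0.45 and *Rpl28* at −0.38, with limma adjusted p-values of at least 0.897. A response in WT and none in *Sema6d*-/- is thus not shown for any member.

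An exact permutation test of 3 libraries against 3 cannot give a 2-sided p below 0.10, and members without overlap, such as *Rpl24* in either genotype and *Rpl3* under IL-33, had that p. The standard error of a fold change had a median of 0.16 over members and 0.56 over all genes.

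**Figure D4:**
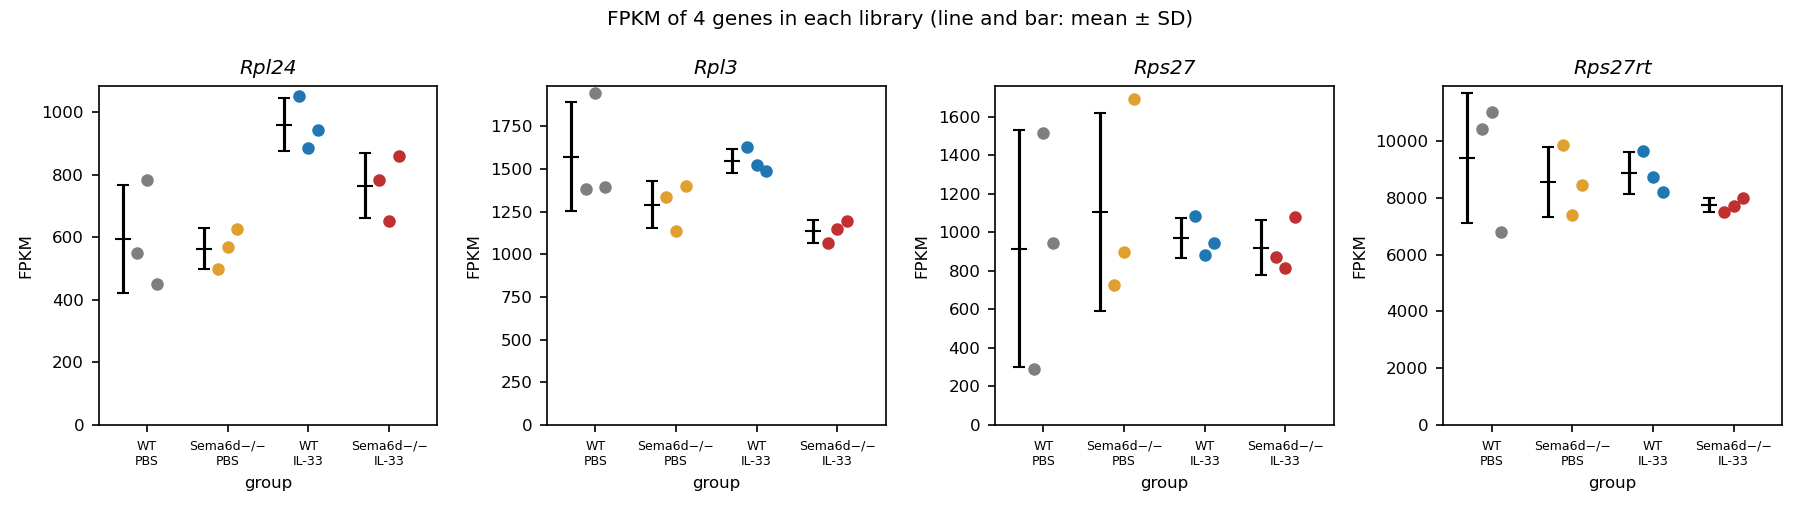
FPKM of *Rpl24*, *Rpl3*, *Rps27* and *Rps27rt* in each of the 3 libraries of 4 groups, with the group mean and SD drawn to the left of the points. Within each genotype *Rpl24* is higher in every IL-33 library than in every PBS library. *Rpl3* is lower in each *Sema6d*-/- IL-33 library than in each WT IL-33 library. *Rps27* and *Rps27rt*, whose coding sequences are identical, scatter most under PBS.

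Some ribosomal protein genes carry other symbols, and 4 of them were tested. Among these *Rps3a1* had a mean of 1883 FPKM, *Fau*, fused to a ubiquitin-like protein, 1185 FPKM and *Gnb2l1*, which encodes the scaffold RACK1, 793 FPKM. By limma 0 of the 4 were called in any comparison, and 1, *Fau* in WT at 0.46 (SE 0.18), had an unadjusted p under 0.05. After IL-33 all 4 lay below 0 in *Sema6d*-/-, with a median of −0.21, and 3 of 4 did after quantile normalization.

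Paralogs of ribosomal proteins were read next. *Rps27l*, a target of p53 that can take the place of *Rps27*, was 183, 163 and 146 FPKM in WT PBS and 370.0, 314 and 375 FPKM in WT IL-33. In *Sema6d*-/- it was 208, 249 and 192 FPKM under PBS and 381, 321 and 323 FPKM after IL-33. It rose with IL-33 in WT by a log2 fold change of 1.10 (SE 0.16, limma adjusted p = 0.00226) and in *Sema6d*-/- by 0.66 (SE 0.16, limma adjusted p = 0.0482), and was the 1 paralog called of 6 tested in each. In WT it passed in 23 of 23 fits, while in *Sema6d*-/- it passed in 10, with adjusted p-values up to 0.234, and lost its call without *Sema6d*-/- PBS replicates 1 or 3 or any library of the IL-33 groups. Of all genes, limma called 2.66% higher with IL-33 in WT and 1.75% in *Sema6d*-/-. At an unadjusted p under 0.05 there was 1 paralog of 6 in WT (17.6% of all genes) and 3 of 6 in *Sema6d*-/- (15.2%), all higher. Between genotypes 0 paralogs were called by limma. An unadjusted p under 0.05 was found for 2 under PBS (12.9% of all genes) and 0 under IL-33 (1.83%). The interaction for *Rps27l* was −0.44 (SE 0.22, limma adjusted p = 0.897). *Rpl36al* had a mean of 511 FPKM and *Rpl22l1*, which can replace *Rpl22*, 311 FPKM, about 3 times the 101 FPKM of *Rpl22* itself. *Rpl7l1* had a mean of 24.7 FPKM, *Rpl39l* 1.93 FPKM with 0 listed in 7 libraries, *Rpl3l* was above 0 in 1 library and *Rpl10l* was listed at 0 in all.

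Genes that work with the ribosome were counted by lists. Beside their counts at an unadjusted p under 0.05 stand 17.6% of all genes for IL-33 in WT, 15.2% in *Sema6d*-/-, 1.83% between genotypes under IL-33, 12.9% under PBS and 5.57% for the interaction. By limma 2.66% of all genes were called higher and 1.61% lower for IL-33 in WT. Of 10 elongation and termination factors, led by *Eef1a1* at 5178, *Eif5a* at 992 and *Eef2* at 586 FPKM, 0 were called by limma in any comparison, and 1 had an unadjusted p under 0.05 in each comparison apart from the interaction, which had 0. Of 36 initiation factors tested, *Eif3f*, a subunit of the scaffold eIF3, rose with IL-33 in WT by 0.80 (SE 0.19, limma adjusted p = 0.0336). *Eif1*, which guards the choice of start codon and was the most abundant at 2184 FPKM, fell, at −0.65 (SE 0.13, limma adjusted p = 0.0183). *Eif4a2*, a helicase, also fell, at −0.92 (SE 0.21, limma adjusted p = 0.0274). *Eif1* was 3342, 2817 and 2251 FPKM in WT PBS and 1662, 1726 and 1902 FPKM in WT IL-33, with no overlap. The calls of *Eif1*, *Eif4a2* and *Eif3f* held in 18, 16 and 10 of 23 fits, with adjusted p-values up to 0.208, 0.111 and 0.148. That of *Eif3f* was lost without any library of the WT groups or of the *Sema6d*-/- IL-33 group, that of *Eif4a2* without any WT IL-33 library or WT PBS replicates 1 or 2, and that of *Eif1* without WT PBS replicate 1 or WT IL-33 replicates 1 or 2. At an unadjusted p under 0.05 there were 7 higher and 2 lower in WT, and in the other comparisons 0 initiation factors were called by limma, with 1 to 4 at an unadjusted p under 0.05.

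Of 14 other mRNAs with a TOP motif, *Npm1* rose in WT with IL-33 by 0.60 (SE 0.14, limma adjusted p = 0.0287) together with *Eif3f*, and *Eif4a2* fell, while 0 were called by limma elsewhere, with 0 to 5 at an unadjusted p under 0.05. In WT 8 of the 14 were higher and 3 lower at an unadjusted p under 0.05, with a median of 0.48, where of all 11395 genes 1355 were higher and 656 lower, with a median of 0.16. *Tpt1*, the most abundant of them at 2103 FPKM, had −0.31 (SE 0.12, limma adjusted p = 0.180) in WT. *Npm1*, a nucleolar chaperone, was also the only one called of 31 ribosome assembly factors, whose median in WT was 0.16, with 5 higher and 1 lower at an unadjusted p under 0.05. It was 579.6, 415 and 453 FPKM in WT PBS and 760.0, 742 and 676 FPKM in WT IL-33, and passed in 15 of 23 fits with adjusted p-values up to 0.232, losing its call without any WT IL-33 library or WT PBS replicates 2 or 3. *Emg1* and *Nop56* had means of 205 and 87.4 FPKM, and outside this comparison 0 assembly factors were called by limma, with 0 to 4 at an unadjusted p under 0.05. Of 11 regulators of TOP mRNAs, including *Mtor* and *Larp1* at 1.75 and 15.7 FPKM, 0 were called by limma, with 0 to 2 at an unadjusted p under 0.05. Some of these lists also lay mostly below 0 between genotypes under IL-33, where the median over all genes was 0.01. The median was −0.21 for elongation factors (7 of 10 below 0) and −0.15 for initiation factors (29 of 36). It was −0.15 for the other TOP mRNAs (12 of 14) and −0.04 for assembly factors (18 of 31). Of the TOP regulators 6 of 11 were above 0, with a median of 0.18. No other scaling was read for these medians.

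Mitochondrial ribosomal protein genes, which serve the separate ribosome of that organelle, were read for comparison. Of 77 tested, 1 rose with IL-33 in WT, *Mrpl54*, from 30.6, 45.4 and 59.3 FPKM in PBS to 103, 129 and 155 FPKM, by 1.52 (SE 0.28, limma adjusted p = 0.0109). Of all genes, limma called 2.66% higher with IL-33 in WT, 1.75% higher with IL-33 in *Sema6d*-/- and 0.246% lower in *Sema6d*-/- under PBS. *Mrpl34* rose with IL-33 in *Sema6d*-/- by 1.62 (SE 0.36, limma adjusted p = 0.0371) and was lower in *Sema6d*-/- than in WT under PBS, at −2.03 (SE 0.36, limma adjusted p = 0.0354). It was 46.1, 44.0 and 51.9 FPKM in WT PBS, 13.6, 5.19 and 17.1 FPKM in *Sema6d*-/- PBS, 48.5, 49.2 and 42.4 FPKM in WT IL-33 and 42.7, 31.7 and 32.5 FPKM in *Sema6d*-/- IL-33. The medians of this list were 0.35 in WT and 0.32 in *Sema6d*-/- for IL-33 against PBS, and −0.18 for *Sema6d*-/- against WT under IL-33, where 56 of 77 were below 0, and no scaling turned any of these 3, though with the same total the last was −0.10 with 51 below 0. The medians over all genes were 0.16, 0.14 and 0.01 in the same order. *Mrpl54* passed in 22 of 23 fits, failing without WT IL-33 replicate 3 (adjusted p = 0.0588), and *Mrpl34* in 14 of 23 with IL-33 and 10 of 23 between genotypes, with adjusted p-values up to 0.158 and 0.766. Leaving out any IL-33 library ended both calls of *Mrpl34*, and leaving out WT PBS replicates 1 or 2 ended the latter. By limma 0 were called between genotypes under IL-33 or for the interaction, with 0 and 2 at an unadjusted p under 0.05, where IL-33 against PBS had 8 in WT and 7 in *Sema6d*-/-, all higher, and genotype under PBS had 8. The most abundant were *Mrpl33* at 511, *Mrps21* at 279 and *Mrpl23* at 188 FPKM. Of 7 ribosomal protein pseudogenes in the files, *Rpl34-ps1* was the most abundant and *Rps15a-ps4*, at 10.9 FPKM, the next; of 6 tested 0 were called by limma, with 0 or 1 at an unadjusted p under 0.05. No test of the lists against each other was made.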

How the data were processed

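Deposited FPKM values of 12 libraries were used. Per the labels, the authors sorted lung ILC2s, made libraries with SMART-Seq HT and Nextera DNA kits, aligned reads to mm10 with TopHat2 2.1.1 and Bowtie2 and derived FPKM with Cuffdiff 2.2.1. The published methods name TruSeq Stranded mRNA libraries, 75-base single-end reads, TopHat 2.0.13, Bowtie2 2.2.3, SAMtools 0.1.19 and Cuffnorm 2.2.1, and 500 ng of IL-33 a day where the labels state 50 ng. The annotation is not given in the sources used here.

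On log2(FPKM + 1), limma 3.58.1 (R 4.3.3; lmFit, eBayes with trend) was fitted over 11395 genes averaging at least 0.5 FPKM, with 1 mean per group, 8 residual degrees of freedom and 5 contrasts. Tests were two-sided, with Benjamini-Hochberg adjustment over all genes tested; called means an adjusted p under 0.05. No overlap means that every library of a group lay above every library of the other. Tables and figures used Python 3.11.15, numpy 2.4.6, pandas 2.3.3 and matplotlib 3.10.9. Code was tested on made-up values with known answers.

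Named genes were the 10 members of highest mean FPKM, up to 5 called members per direction and contrast or else the 3 at each end, the stalk genes and *Rpsa*, ribosomal protein genes outside the symbol rule and paralogs, the 3 members of largest and smallest pooled SD, symbols next to the 1 FPKM threshold, and the 3 most abundant and the called genes of the other lists. Others named (*Rps9*, *Rpl18*, *Rps13* and the copies, for example) were chosen after their values were seen. Some genes and a sequence that the rule or the text would name are not reported here. Lists were elongation factors, initiation factors, other TOP mRNAs, TOP regulators, ribosome assembly factors, mitochondrial ribosomal proteins, ribosomal protein pseudogenes, and markers of ILC2s, macrophages, B cells, T cells, NK cells, eosinophils, neutrophils, epithelium, endothelium and fibroblasts. Members and lists were chosen with earlier results of these data known.

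Alternatives tried were adding 0.1 in place of 1, testing every gene above 0, a 2 FPKM filter, quantile normalization, median-ratio scaling, the same total in every library, no trend, array weights, replicate number as a block, only the 2 groups compared, and each library left out. Setting each gene relative to the members' mean was added after seeing the data. Shared 75-base stretches came from GENCODE vM21 transcripts, and start sites from RefSeq, both on GRCm38.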

Additional observations from a re-analysis of the deposited data

Results flagged for a closer look

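*Mtor* encodes the kinase that controls translation of TOP mRNAs. Of all members and list genes it alone was picked out, because its libraries moved in opposite directions with IL-33 in the genotypes. Under PBS it was 3.41, 3.57 and 3.58 FPKM in WT and 0, 0 and 0.234 FPKM in libraries labelled *Sema6d*-/-. After IL-33 it was 2.65, 2.91 and 1.05 FPKM in WT and 1.003, 0.948 and 1.61 FPKM in *Sema6d*-/-. Between genotypes under PBS the log2 fold change was −2.08, the lowest of the 11 TOP regulators, and was not called by limma. The log2 fold change with IL-33 was −0.55 in WT (SE 0.42, limma adjusted p = 0.551) and 1.02 in *Sema6d*-/- (SE 0.42, limma adjusted p = 0.267), and their difference was 1.57 (SE 0.59, limma adjusted p = 0.877). The difference was tested and not called.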

How the results depend on the processing

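In each comparison 0 of 76 members were called. That count became 4 with quantile normalization (248 of all 11395 genes higher and 231 lower), 2 with the same total (298 and 173), 1 with array weights (271 and 150) and 2 relative to the members' mean (1.29% and 1.43%) for IL-33 in WT. It became 2 with array weights (30 and 25) for *Sema6d*-/- against WT under IL-33. The causes were not tested. It was 0 under the other alternatives that kept all libraries. With 1 library left out it ran from 0 to 4 for IL-33 in WT, where 4 came without WT PBS replicate 2 (317 and 209), and from 0 to 1 for IL-33 in *Sema6d*-/-, where 1 came without *Sema6d*-/- PBS replicate 2 (309 and 167).

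Members whose groups did not overlap numbered 11 higher and 1 lower for IL-33 in WT. The higher count was 25 with quantile normalization (12.2% of all genes), 20 with the same total (16.1%) and 16 relative to the members' mean (9.55%), and the lower count 2 with the same total (8.78%) and 15 relative to that mean (11.7%). For IL-33 in *Sema6d*-/-, 9 higher became 21, 15 and 14 with these 3 scalings in the order quantile, same total and relative (10.9%, 14.5% and 12.5% of all genes), and 5 lower became 18 relative to the mean (8.61%). For *Sema6d*-/- against WT under IL-33, 0 higher became 1 with quantile normalization (6.52% of all genes) and 8 relative to the mean (15.7%), and 30 lower became 19, 19 and 15 with the 3 scalings (798, 563 and 239 of all 11395 genes). Under PBS, 0 higher became 1 with the same total (5.10% of all genes) and 5 relative to the mean (3.68%), and 1 lower became 0, 0 and 4 (4.39%, 3.64% and 3.29%). With 1 library left out the counts ran from 11 to 37 higher and 1 to 8 lower for IL-33 in WT, from 9 to 16 and 5 to 26 in *Sema6d*-/-, from 0 to 1 and 30 to 68 between genotypes under IL-33, and from 0 to 4 and 1 to 29 under PBS. The shares of all genes in the extremes that moved were 23.2% (37 higher) and 14.8% (8 lower), 22.7% (16) and 15.2% (26), 11.4% (68 lower), and 7.84% (4) and 8.47% (29).

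Members at an unadjusted p under 0.05 numbered 12, 3, 6, 1 and 0 for IL-33 in WT, IL-33 in *Sema6d*-/-, genotype under IL-33, genotype under PBS and the interaction. Over the alternatives the count ran from 1 (no trend, 16.9% of all genes) to 30 (without WT PBS replicate 2, 18.7%) in WT, and from 0 (no trend, 14.6%) to 12 (quantile normalization, 16.4%) in *Sema6d*-/-. It ran from 0 (no trend, 1.65%) to 44 (array weights, 9.52%) between genotypes under IL-33, from 0 (same total, 12.7%) to 18 (without WT PBS replicate 3, 15.6%) under PBS, and up to 9 (without WT PBS replicate 2, 7.27%) for the interaction.

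Of single members, *Rpl38* between genotypes under IL-33 turned from −0.04 to 0.077 with quantile normalization, 0.042 with the same total and 0.15 relative to the mean, and *Rpl22* from −0.03 to 0.049 with the same total and 0.16 relative to the mean. With 1 library left out *Rpl26* for IL-33 in WT ran from −0.99 to 0.39, *Rpl22* between genotypes under IL-33 from −0.084 to 0.063, and *Rps27* between genotypes under PBS from −0.21 to 0.98. *Rps27* for the interaction of genotype and treatment ran from −1.06 to 0.13.

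With replicate number as a replicate block, 0 members were called in each comparison. The median correlation of libraries with the same number, after group means were removed, was 0.005 over 18 pairs (−0.047 to 0.045) and −0.004 for other numbers. Same-numbered libraries thus did not deviate together over the genes tested. This does not settle whether the numbers pair libraries, since a pairing need not show in most genes. Among genes of other lists the block ended the calls of *Eif3f* and *Npm1* in WT, *Rps27l* and *Mrpl34* in *Sema6d*-/-, and *Mrpl34* between genotypes. Depth is known only relative to other libraries, and genes near 0 are limited by it more than the abundant members.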
